A study of Mus musculus with 6 samples.

Results

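The transcripts described here encode phosphatases and scaffold-like inhibitors that switch off mitogen-activated protein kinase (MAPK) signalling, in livers of C57BL/6 mice after an overdose of acetaminophen (APAP, paracetamol). The 10 genes, *Dusp1*, *Dusp3*, *Dusp4*, *Dusp5*, *Dusp6*, *Dusp10*, *Dusp16*, *Spry2*, *Spry4* and *Spred1*, were chosen by symbol from the 55401 genes of the deposited table, and each symbol matched a single entry. Poly(A) RNA of whole liver was sequenced in 3 groups of 2 libraries each. The control group was labelled normal, with no vehicle or hour of collection given. The APAP group (titled model) was taken 6 h after 400 mg/kg APAP injected into the peritoneum. The COS+APAP group (titled drug) had costunolide (COS, a plant sesquiterpene lactone) at 20 mg/kg 12 h and again 40 min ahead of that APAP dose. No group had COS alone, age and sex are not given in the labels used here, and separate animals are not named for the libraries, so p-values measure only the spread between libraries, which may be technical. The protocol text assigns COS to the samples numbered 5 and 6, which in order of deposit are the libraries titled model. If that text and not the titles, source names and treatment fields were right, APAP and COS+APAP would change places and every difference between them would change sign. Titles of the COS+APAP libraries carry the prefix 2 and all others the prefix 1, so a batch that goes with the prefix and COS cannot be told apart.

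MAPKs, among them ERK, JNK and p38, are active when a threonine and a tyrosine of their activation loop are phosphorylated, and dual-specificity phosphatases (DUSPs) remove both phosphates. Many DUSP genes are themselves transcribed when the kinases are active, so that their messages form a negative feedback loop. Sprouty and Spred proteins act further upstream, where they restrain the RAS-RAF-ERK route below growth factor receptors, and several of them are also induced by ERK. In APAP-injured liver, sustained JNK activity in hepatocytes is a known step towards mitochondrial damage.

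All 10 genes had higher FPKM (fragments scaled to transcript length and library size) in both APAP libraries than in either control library, and 9 of them, all but *Dusp10*, were lower in both COS+APAP libraries than in either APAP library. Such separation was found for 32.1% and 35.3% of the 10051 genes tested, those with a mean of at least 1 FPKM over the 6 libraries. *Spry2* was under this filter, and *Dusp4* and *Spry4* passed it only through their APAP libraries. The adjusted p-values below come from quasi-likelihood tests in edgeR, adjusted by Benjamini-Hochberg, and a gene was called at an adjusted p under 0.05. With APAP 8 of the 9 tested members were called higher than in control and 0 lower, where 23.3% of tested genes were called higher, 22.1% lower and 45.4% in either direction. In COS+APAP against APAP 7 of the 9 were called lower and 0 higher, beside 11.1% and 11.2% of tested genes (22.4% in either direction). Against control, COS+APAP livers had 1 member called higher, beside 10.7% of genes, and 2 called lower, beside 10.3% (21.0% in either direction). By separation of the libraries, *Dusp4* and *Dusp5* lay above control in COS+APAP, as did 25.0% of tested genes, and *Dusp6*, *Dusp16*, *Spry2*, *Spry4* and *Spred1* lay below it, as did 42.3%. These comparisons share libraries, so their counts are not independent of each other. In bulk tissue, fewer cells of a type and less RNA per cell cannot be told apart.

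**Figure D1:**
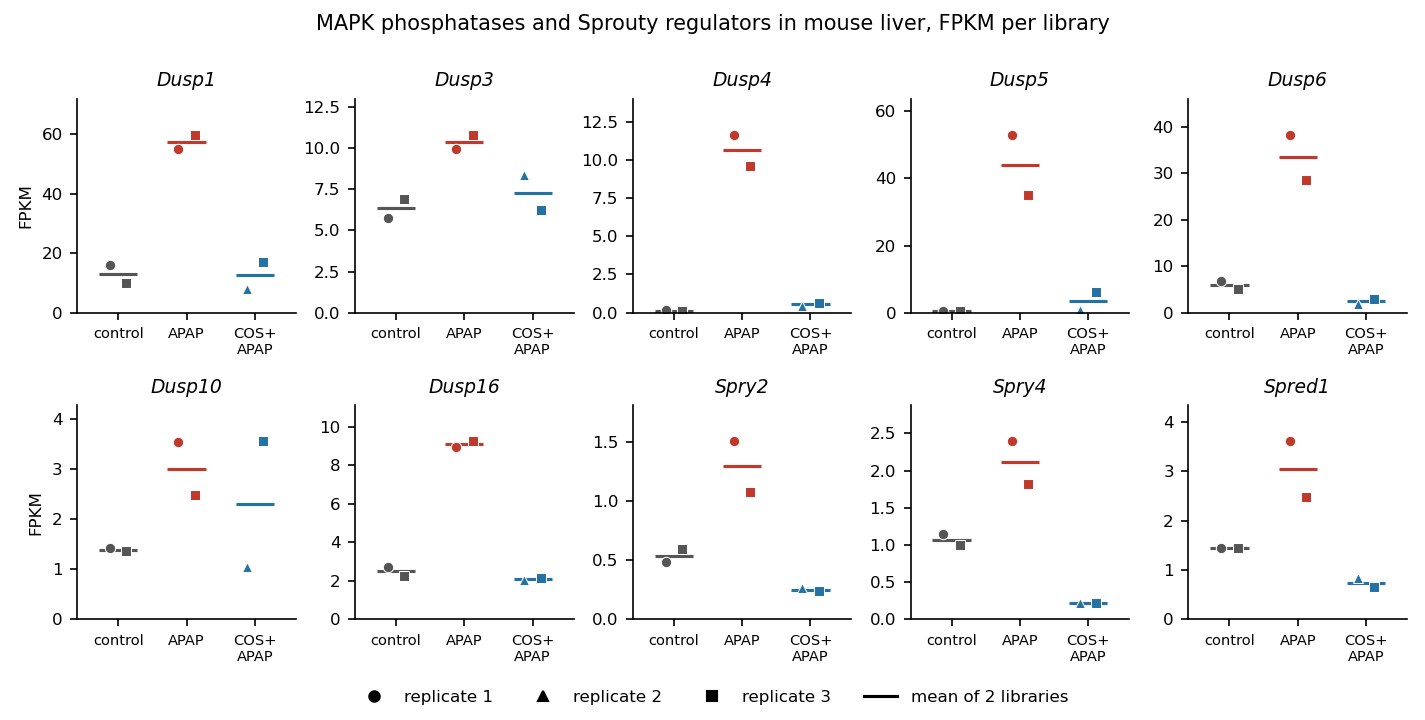
FPKM of the 10 genes in each library, with 1 panel and its own linear axis per gene; symbols mark the replicate number and lines the mean of the 2 libraries of a group. The APAP libraries lie above both control libraries in every panel, and *Dusp10* is the gene whose COS+APAP libraries reach into the APAP range. *Spry4*, *Spry2*, *Spred1*, *Dusp6* and, by a small margin, *Dusp16* lie below control in COS+APAP, as do 42.3% of tested genes.

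In control liver *Dusp1* had the highest level of the 10 genes, at 13.0 ± 4.34 FPKM (mean ± SD, n = 2). It was followed by *Dusp3* (6.34 ± 0.806) and *Dusp6* (5.96 ± 1.34), whose libraries overlapped, then by *Dusp16* (2.49 ± 0.332), *Spred1* (1.44 in both libraries), *Dusp10* (1.39 ± 0.0424) and *Spry4* (1.07 ± 0.099). *Spry2* (0.535 ± 0.0778), *Dusp5* (0.38 ± 0.0141) and *Dusp4* (0.135 ± 0.0212) were at the low end. With APAP the order changed, and *Dusp1* (57.4 ± 3.33) was followed by *Dusp5* (44.1 ± 12.7) and *Dusp6* (33.5 ± 6.88), which overlapped each other. *Dusp4* (10.6 ± 1.44) and *Dusp3* (10.4 ± 0.629) overlapped as well, above *Dusp16* (9.11 ± 0.226). *Spred1* (3.05 ± 0.813) and *Dusp10* (3.02 ± 0.743) could not be told apart and were followed by *Spry4* (2.11 ± 0.41) and *Spry2* (1.29 ± 0.304). In COS+APAP the order began with *Dusp1* (12.6 ± 6.53) and *Dusp3* (7.27 ± 1.5), which overlapped. *Dusp5* (3.44 ± 3.79), *Dusp6* (2.42 ± 0.65), *Dusp10* (2.31 ± 1.78) and *Dusp16* (2.1 ± 0.0778) overlapped one another. By their means *Spred1* (0.74 ± 0.127), *Dusp4* (0.545 ± 0.106), *Spry2* (0.25 ± 0.0141) and *Spry4* (0.21 in both libraries) came last. *Dusp5* also overlapped *Spred1*, with replicate 2 of *Dusp5* at 0.76 FPKM and the *Spred1* libraries at 0.83 and 0.65.

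*Dusp5* and *Dusp6* encode the phosphatases that act mainly on ERK, *Dusp5* in the nucleus and *Dusp6* in the cytoplasm. *Dusp5* (ENSMUSG00000034765, chromosome 19, 53529109 to 53542431, plus strand) had control levels of 0.39 and 0.37 FPKM, APAP levels of 53.03 and 35.11, and COS+APAP levels of 0.76 and 6.12. It was barely detected in control, resting on 81 and 73 estimated counts, and high in both APAP libraries. In COS+APAP it was close to control in replicate 2 but well above it in replicate 3. Between APAP and control *Dusp5* rose by 7.00 ± 1.12 (log2 fold change ± SE, 128-fold, adjusted p = 0.00599), the largest rise of the members. Against APAP, *Dusp5* of COS+APAP fell by 3.66 ± 0.94 (12.6-fold, adjusted p = 0.0451), a call that was lost without either APAP library (adjusted p up to 0.143), with the 4 libraries of these groups alone (0.0751) or with no filter on low values (0.0638), and a difference of -5.85 without COS+APAP replicate 3. Its difference between COS+APAP and control was not called (3.34 ± 0.97, adjusted p = 0.0625), but was without COS+APAP replicate 2 (4.17, adjusted p = 0.0111) and with DESeq2 (0.00903), and it was 1.15 without COS+APAP replicate 3 (adjusted p = 0.106).

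*Dusp6* (ENSMUSG00000019960, chromosome 10, 99263231 to 99267489, plus strand) was at 6.90 and 5.01 FPKM in the control libraries, at 38.37 and 28.64 in those of APAP, and at 1.96 and 2.88 with COS. The 3 groups did not overlap, and the COS+APAP libraries were the lowest. *Dusp6* rose with APAP by 2.63 ± 0.30 (6.19-fold, adjusted p = 0.00247) and fell by 3.77 ± 0.31 from APAP to COS+APAP (13.6-fold, adjusted p = 0.00543), calls kept in every alternative run. The fall of *Dusp6* below control in COS+APAP (-1.14 ± 0.29, 2.2-fold, adjusted p = 0.0439) was lost without any one of the 4 libraries (adjusted p up to 0.15), with those 4 alone (0.0571) and with no filter (0.0756).

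*Dusp1* and *Dusp4* encode inducible nuclear phosphatases, of which DUSP1 favours p38 and JNK and DUSP4 acts on ERK and JNK. *Dusp1* (ENSMUSG00000024190, chromosome 17, 26505590 to 26562128, minus strand) had 16.07 and 9.93 FPKM in the control libraries, 55.08 and 59.79 with APAP alone, and 7.94 and 17.18 with COS and APAP. The APAP libraries lay above all others, while control and COS+APAP overlapped. *Dusp1* rose with APAP by 2.28 ± 0.43 (4.85-fold, adjusted p = 0.00953) and fell by 2.17 ± 0.42 from APAP to COS+APAP (4.5-fold, adjusted p = 0.0227), which was lost without either APAP library or COS+APAP replicate 2 (adjusted p from 0.0596 to 0.0835). Between COS+APAP and control its log2 difference was 0.11 ± 0.41 (adjusted p = 0.875), of either sign across the alternatives.

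*Dusp4* (ENSMUSG00000031530, chromosome 8, 34807297 to 34819894, plus strand) stood at 0.15 and 0.12 FPKM in control, resting on 34 and 27 estimated counts, at 11.65 and 9.62 in APAP, and at 0.47 and 0.62 in COS+APAP. The transcript was rare in control, and reached the level of *Dusp3* and *Dusp16* in APAP. *Dusp4* rose by 6.43 ± 0.28 (86-fold, adjusted p = 0.000878) and was lower in COS+APAP than in APAP by 4.26 ± 0.25 on the log2 scale (19.2-fold, adjusted p = 0.00341), both kept in every alternative run. It was the member called higher in COS+APAP than in control (2.16 ± 0.25, 4.48-fold, adjusted p = 0.00675), except with limma on log2(FPKM + 1), a scale that understates changes of low genes (0.44, adjusted p = 0.0611).

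Upstream sequences of 8 members were in the RefSeq promoter table used here (GRCm38.p6, 250 bases before the annotated start), and *Dusp4* and *Spry4* were not matched. Those of *Dusp1* and *Dusp5* are shown because both transcripts rose with APAP and differed between the COS+APAP libraries, while their upstream motifs differ. Printed are the bases ahead of the outermost annotated exon start inside that window, 5′ to 3′ on the gene's strand, for *Dusp1* chr17:26508520-26508722 (minus strand) and for *Dusp5* chr19:53528895-53529108 (plus strand). GENCODE also annotates *Dusp1* transcripts that begin further upstream, the outermost at position 26562128, so the *Dusp1* sequence lies ahead of the RefSeq start but inside the gene's full span. Capitals mark the cAMP response element (CRE, TGACGTCA) and its core TGACG on either strand, and in *Dusp5* also the CArG boxes, which are known as sites of serum response factor.
Dusp1: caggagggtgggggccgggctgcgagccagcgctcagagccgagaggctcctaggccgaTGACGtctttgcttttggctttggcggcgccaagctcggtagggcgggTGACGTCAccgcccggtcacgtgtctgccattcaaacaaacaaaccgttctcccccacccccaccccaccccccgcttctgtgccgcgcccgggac
Dusp5: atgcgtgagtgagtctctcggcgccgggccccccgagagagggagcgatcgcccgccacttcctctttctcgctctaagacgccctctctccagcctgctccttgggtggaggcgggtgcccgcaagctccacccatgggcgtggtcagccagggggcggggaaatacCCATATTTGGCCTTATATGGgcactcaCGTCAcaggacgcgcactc
The *Dusp1* sequence holds a full CRE at positions -143 to -136 from the RefSeq start and a further core at -191 to -187. *Dusp5* has adjoining CArG boxes at -82 to -73 and -72 to -63, and a CRE core at -55 to -51. Of 32851 promoters of this length 1.55% held a full CRE, 1.47% a CArG box and 0.0183% 2 or more CArG boxes, whereas 17.8% held the CRE core, which also counts inside every full CRE. *Dusp16* held a CRE core as well (-70 to -66). Of the other motifs searched on both strands, AP-1 (TGANTCA, in 6.75% of all promoters), CCGGAAG (6.91%) and TATAAA (12.4%) were in none of the 8 windows. CCGGAAG is a strict form of the ETS site, and other forms were not searched. The CCAAT box (CCAAT, 33.8%) was in those of *Dusp3*, *Dusp6*, *Dusp10* and *Dusp16*. A match describes letters only, and binding was not measured.

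**Figure D2:**
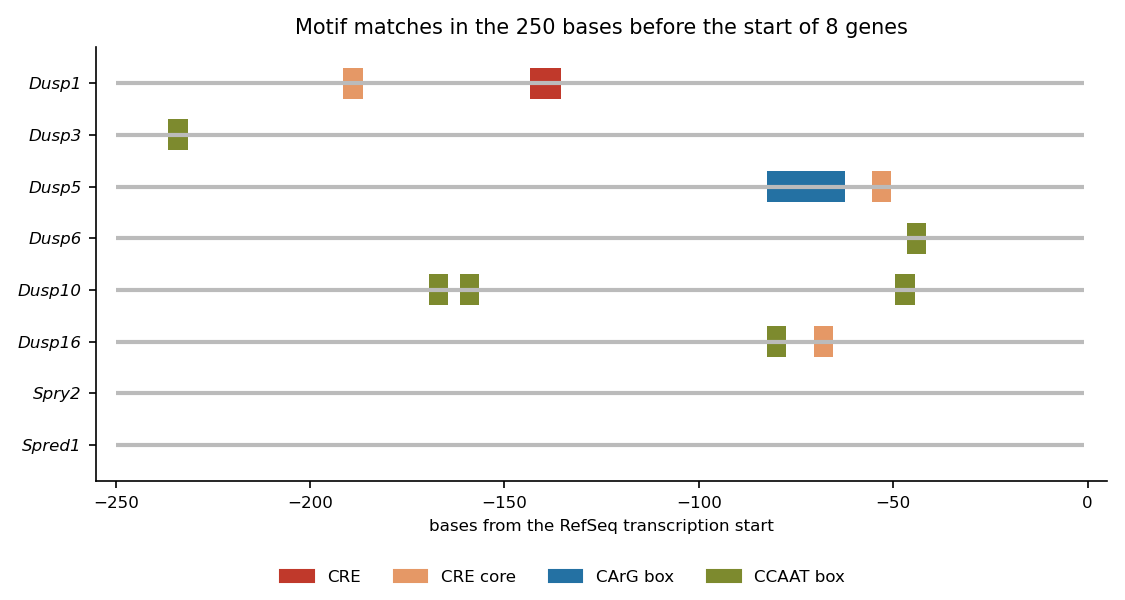
Motif matches on either strand in the 250 bases before the RefSeq start of 8 genes, with the horizontal axis in bases from that start; a CRE core inside the full CRE is covered by it. The full CRE is in *Dusp1*, the adjoining CArG boxes in *Dusp5*, and *Spry2* and *Spred1* show none of the motifs searched.

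*Dusp16* and *Dusp10* encode phosphatases directed at the stress kinases JNK and p38. *Dusp16* (ENSMUSG00000030203, chromosome 6, 134715468 to 134792625, minus strand) measured 2.72 and 2.25 FPKM in control livers, 8.95 and 9.27 with APAP alone, and 2.04 and 2.15 with COS and APAP. The libraries of each group lay close together, with those of COS+APAP just under those of control. *Dusp16* rose by 2.01 ± 0.14 (4.02-fold, adjusted p = 0.00118) and fell by 2.10 ± 0.14 from APAP to COS+APAP (4.29-fold, adjusted p = 0.00371), with both calls kept in every alternative run. Its difference from control in COS+APAP was -0.09 ± 0.14 (adjusted p = 0.664).

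*Dusp10* (ENSMUSG00000039384, chromosome 1, 184013302 to 184075636, plus strand) had 1.42 and 1.36 FPKM in control livers, 3.54 and 2.49 with APAP alone, and 1.05 and 3.57 with COS and APAP. Its COS+APAP libraries spanned the whole range of the other groups, with replicate 2 the lowest and replicate 3 the highest of the 6. No comparison of *Dusp10* was called, at log2 differences of 1.26 ± 0.57 between APAP and control (adjusted p = 0.124), -0.36 ± 0.56 between COS+APAP and APAP (0.67) and 0.90 ± 0.57 between COS+APAP and control (0.305). The first of these was called when control and APAP were fitted without the COS+APAP libraries (1.24 ± 0.253, adjusted p = 0.0206), and the last without COS+APAP replicate 2 (1.53, adjusted p = 0.0463), while it was -0.25 without replicate 3.

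*Dusp3* encodes a small phosphatase without the kinase-docking domain of the larger DUSPs. *Dusp3* (ENSMUSG00000003518, chromosome 11, 101971143 to 101987013, minus strand) had 5.77 and 6.91 FPKM in control livers, 9.92 and 10.81 with APAP alone, and 8.33 and 6.21 with COS and APAP. The APAP libraries were the highest, and those of COS+APAP overlapped control. It had the smallest fold change of the members in APAP, a rise of 0.85 ± 0.18 (1.8-fold, adjusted p = 0.013), and this call was lost without control replicate 1 (adjusted p = 0.0568) or without either APAP library (0.0501 and 0.0546). Neither COS+APAP against APAP (-0.49 ± 0.17, adjusted p = 0.0989) nor COS+APAP against control (0.35 ± 0.17, adjusted p = 0.202) was called, though DESeq2 called the former (adjusted p = 0.0446).

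**Figure D3:**
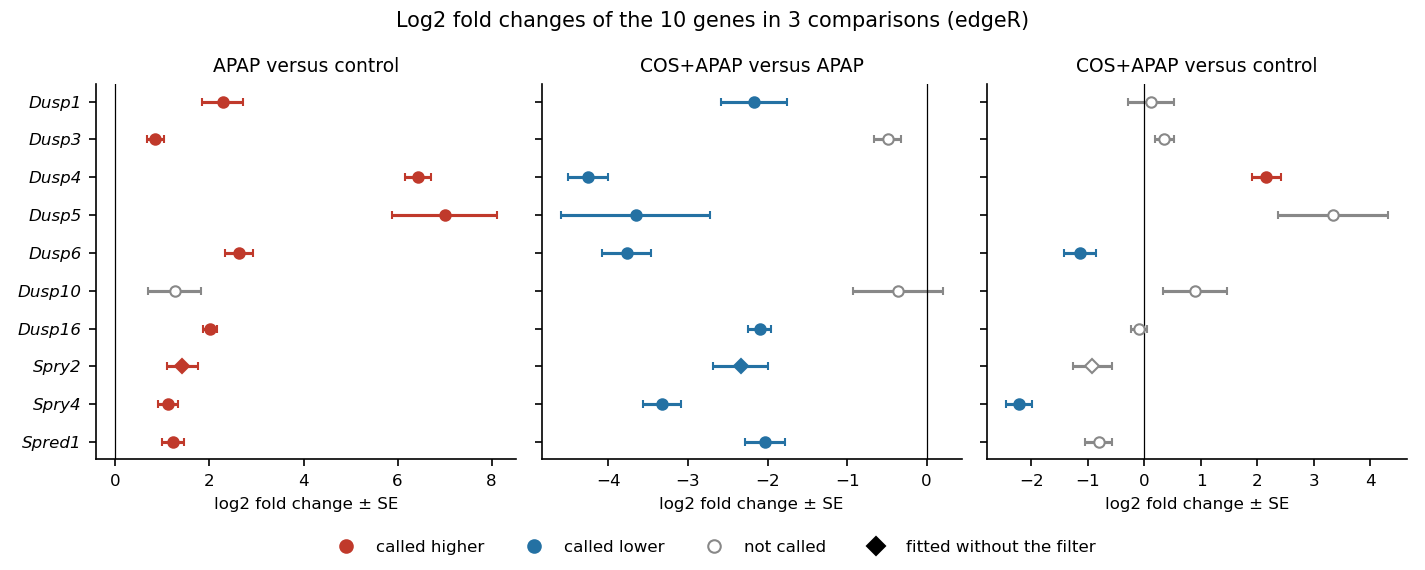
Log2 fold changes with standard errors of the 10 genes in the 3 comparisons, red and blue where called higher or lower, open grey where not called, and diamonds for *Spry2*, fitted without the filter. Rises with APAP run from 0.85 (*Dusp3*) to 7.00 (*Dusp5*), and in COS+APAP against control *Dusp4* is called higher and *Dusp6* and *Spry4* lower.

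The Sprouty and Spred genes rose 2.17- to 2.67-fold with APAP, and their COS+APAP libraries lay below both control libraries. *Spry4* (ENSMUSG00000024427, chromosome 18, 38586247 to 38601415, minus strand), an inhibitor of RAS and RAF activation, had 1.14 and 1.00 FPKM in control livers, 2.40 and 1.82 with APAP alone, and 0.21 in both COS+APAP libraries. The groups did not overlap, and the COS+APAP values rested on 76 and 81 estimated counts, beside 384 to 908 elsewhere. *Spry4* rose with APAP by 1.12 ± 0.22 (2.17-fold, adjusted p = 0.0112), lost without APAP replicate 1 (0.0548) or control replicate 3 (0.0585). From APAP to COS+APAP *Spry4* fell by 3.33 ± 0.24 (10.1-fold, adjusted p = 0.00447), and against control by 2.22 ± 0.23 (4.64-fold, adjusted p = 0.00538). Both falls were called in each of the 11 alternatives run.

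*Spred1* (ENSMUSG00000027351, chromosome 2, 117121374 to 117182279, plus strand), which brings the RAS inactivator neurofibromin to the membrane, had 1.44 FPKM in both control libraries, 3.62 and 2.47 with APAP alone, and 0.83 and 0.65 with COS and APAP. *Spred1* rose by 1.22 ± 0.24 (2.33-fold, adjusted p = 0.0117), which did not hold without either control library (0.0505 and 0.0575), and was lower in COS+APAP than in APAP by 2.03 ± 0.25 on the log2 scale (4.09-fold, adjusted p = 0.0089). The groups did not overlap, but the difference between COS+APAP and control was not called (-0.81 ± 0.24, adjusted p = 0.0691), except with DESeq2 (0.0182) and with library totals without TMM (0.0348).

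*Spry2* (ENSMUSG00000022114, chromosome 14, 105891947 to 105896819, minus strand), another Sprouty inhibitor of the ERK route, was the least abundant member in APAP, with 0.48 and 0.59 FPKM in control livers, 1.51 and 1.08 with APAP alone, and 0.26 and 0.24 with COS and APAP. Fitted without the filter on low values, over 26367 genes, *Spry2* rose by 1.42 ± 0.33 with APAP (2.67-fold, adjusted p = 0.0319, where 9.17% of genes were called higher) and fell by 2.34 ± 0.34 from APAP to COS+APAP (5.05-fold, adjusted p = 0.0185, where 3.74% were called lower). Both calls were lost whichever of the 4 libraries was left out, with adjusted p up to 0.141 and 0.117. Its difference between COS+APAP and control was -0.92 ± 0.34 (adjusted p = 0.192), where 2.91% of genes were called lower.

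The COS+APAP libraries disagreed for some members and not for others. Replicate 3 exceeded replicate 2 by 8.05-fold in FPKM for *Dusp5*, 3.40-fold for *Dusp10* and 2.16-fold for *Dusp1*, whereas the middle 90% of tested genes had ratios between 0.632 and 1.65. *Dusp6* (1.47) and *Dusp4* (1.32) lay inside that range on the high side, and *Dusp16* (1.05), *Spry4* (1.00), *Spry2* (0.923), *Spred1* (0.783) and *Dusp3* (0.746) near or below a ratio of 1.

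By the distance between profiles of log2(FPKM + 1) relative to control over the 6 libraries, the genes nearest to each member were as follows. Nearest to *Dusp1* were *Trib1*, *Ccn1* and *Brd2* (distances 0.62 to 0.63), with *Trib1*, a pseudokinase, at 8.22 and 7.86 FPKM in control livers, 49.11 and 43.63 with APAP alone, and 5.03 and 10.73 with COS and APAP. *Dusp5* was followed less closely, by *Btg2* (0.92), *Maff* (1.29) and *Ddit3* (1.30). All of these also had the higher COS+APAP value in replicate 3, which the choice by distance over the same 6 libraries favours. The gene nearest to *Dusp4* was the cytoplasmic actin gene *Actg1* (0.25), although its mean level went from 46.2 FPKM in control to 474.2 in APAP, a smaller ratio than that of *Dusp4*, whose low values the added 1 FPKM compresses. The next was another phosphatase gene, *Dusp8* (0.58). *Dusp6* was nearest to *Slc25a30* (0.33), *Dusp16* to *Rassf3* (0.27), *Dusp10* to *Wdr26* (0.41), *Spry4* to *Zcchc2* (0.21) and *Spred1* to *Apobec1* (0.16). Among tested members the closest pair was *Spry4* and *Spred1* (0.47) and the most distant *Dusp5* and *Spry4* (7.09). Short distances are reached more easily by genes with low levels or small changes.

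Of 19 further MAPK phosphatase and Sprouty family genes, 9 passed the filter, and 6 of these rose with APAP, 0 fell and 3 did not pass the test (median log2 fold change 0.41, beside 0.00 over all tested genes). The count of rises was 4 with upper quartile scaling or library totals and 3 with limma, and *Dusp8* and *Dusp14* passed the filter only through their APAP libraries. *Dusp8*, a phosphatase of JNK and p38, went from 0.11 and 0.08 FPKM in control to 8.15 and 7.39 in APAP and was at 0.20 and 0.74 in COS+APAP. It rose by 6.49 ± 0.72 (adjusted p = 0.00239), much like *Dusp4*, and in COS+APAP fell by 4.02 ± 0.63 against APAP (adjusted p = 0.0142) and was called above control (2.47 ± 0.64, adjusted p = 0.0473), which did not hold with library totals or limma. *Dusp14* (2.35 ± 0.64, adjusted p = 0.031) and *Spry1* (1.30 ± 0.29, adjusted p = 0.0166) rose with APAP as well. *Spry1* was at 1.55 and 1.18 FPKM in control livers, 2.45 and 3.68 with APAP alone, and 0.93 and 0.69 with COS and APAP. Its COS+APAP level was called lower than APAP (-1.90 ± 0.30, adjusted p = 0.0142) but not lower than control (-0.60 ± 0.29, adjusted p = 0.196). From APAP to COS+APAP 0 of the 9 rose, 3 fell (*Dusp8*, *Spry1* and *Spred2*) and 6 did not pass (median -0.20). Against control 1 rose and 0 fell, but 0 rose and 1 fell with library totals or limma. Of those under the filter *Dusp26*, named after its values were seen, was listed at 0 in all 6 libraries.

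**Figure D4:**
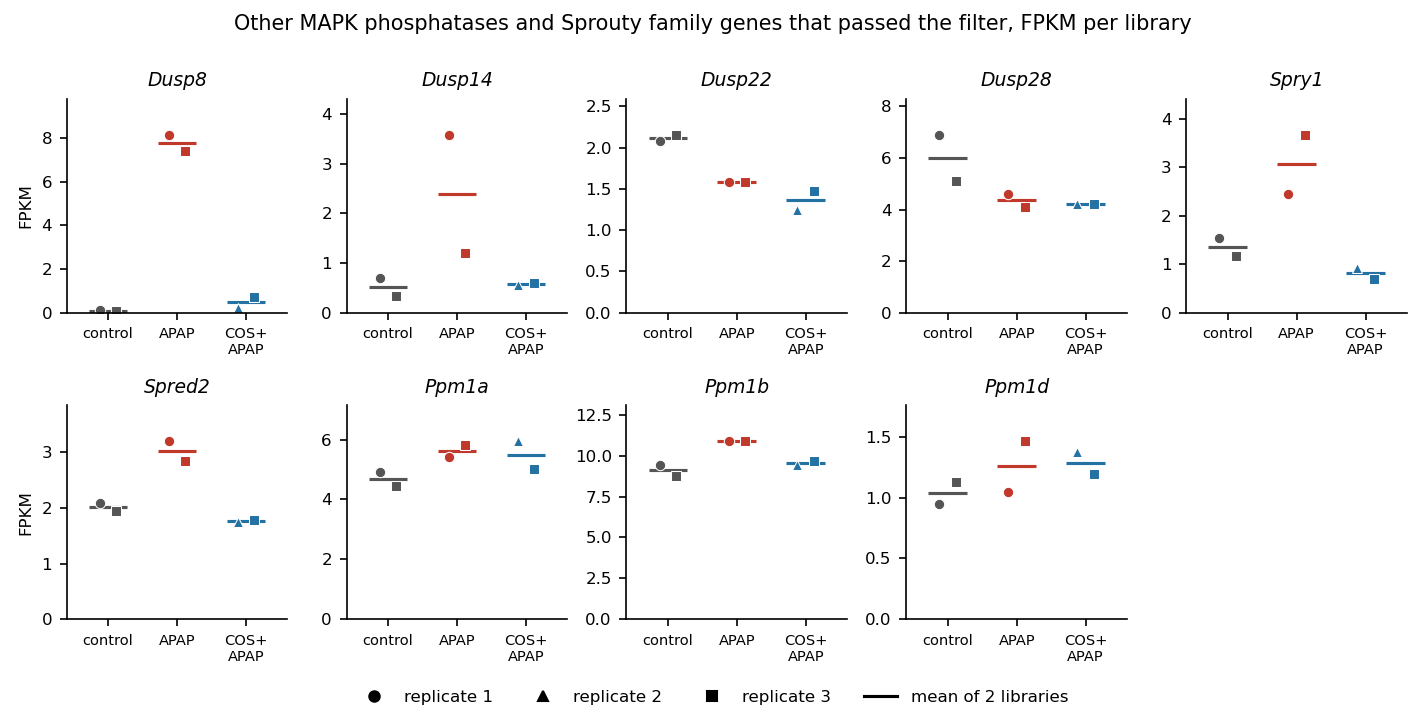
FPKM per library of the 9 further MAPK phosphatase and Sprouty family genes that passed the filter, with symbols and lines as for the 10 members. *Dusp8* and *Spry1* are highest in the APAP libraries and low in COS+APAP. *Ppm1a* lies between 4.44 and 5.96 in all 6 libraries, though it was called higher with APAP (0.41 ± 0.13, adjusted p = 0.0482).

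Growth factors and their receptors act upstream of the feedback genes. Of 16 tested growth factor ligands and receptors 5 rose with APAP, 3 fell and 8 did not pass (median 0.00), with 5 falls under library totals. The median was -0.12 with upper quartile scaling, -0.15 with library totals and -0.09 with limma. *Hbegf*, *Btc* and *Kdr* passed the filter only through their APAP libraries. *Hbegf*, a ligand of the EGF receptor, went from 0.10 and 0.13 FPKM in control to 4.36 and 2.06 in APAP and was back at 0.09 and 0.16 in COS+APAP (log2 fold change 4.96 ± 0.54, adjusted p = 0.00223, then -4.67 ± 0.53, adjusted p = 0.00768). *Btc*, another ligand of that receptor (3.52), and the hepatokine *Fgf21* (5.68) rose, and *Fgf21* in COS+APAP was lower than in APAP (-2.18, adjusted p = 0.0209) and higher than in control (3.50, adjusted p = 0.00867). *Vegfa* (-0.95), *Erbb3* (-0.78) and *Fgf1* (-0.77) fell. From APAP to COS+APAP 2 rose, 6 fell and 8 did not pass (median -0.03, of either sign under other scalings), and against control 3 rose (5 with DESeq2) and 3 fell.

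Of 22 tested genes of the RAS-ERK cascade 5 rose with APAP, 4 fell and 13 did not pass (median 0.20). *Sos2* and *Braf* passed the filter only through their APAP libraries. *Mknk2*, an effector kinase below ERK, rose by 1.99, *Sos2*, a RAS activator, by 1.29, and *Braf* by 0.90, while *Rps6ka1* (-1.19), *Gab1* (-0.83) and *Mapk3*, which encodes ERK1 (-0.50), fell. From APAP to COS+APAP 0 rose and 2 fell (*Sos2* and *Mknk2*), and 20 did not pass. Against control 2 rose, *Braf* and *Mknk2*, and 0 fell, whereas limma gave 1 and 1 and DESeq2 2 and 1.

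JNK and p38 are reached through a kinase cascade of their own. The list of JNK and p38 kinases also holds *Mapk6* (ERK3), *Mapk7* (ERK5) and *Map3k8*, which chiefly activates the ERK route. Of its 18 tested genes 8 rose with APAP, 2 fell and 8 did not pass (median 0.57), and *Map3k8* and *Mapk8* passed the filter only through their APAP libraries. *Map3k6* (5.65), *Map3k5*, which encodes the redox-sensitive kinase ASK1 (2.54), and *Map3k8* (2.25) rose, and *Map2k6*, a kinase that activates p38, fell by 3.02. *Map3k5* had 2.98 and 2.61 FPKM in control livers, 15.55 and 13.97 with APAP alone, and 6.10 and 8.15 with COS and APAP, between the other groups. In COS+APAP against APAP 1 rose (*Map2k6*), 5 fell and 12 did not pass (median -0.31), and against control 5 rose, 1 fell and 12 did not pass, with *Map3k6* still 4.66 above control.

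Of 12 tested ERK output transcripts outside the members 9 rose with APAP, 1 fell and 2 did not pass (median 1.95, the same with *Fosl1*, listed at 0 in both control libraries, set to its lower bound of 215-fold). *Fosl1* and *Ier3* passed the filter only through their APAP libraries. The rises include *Srf*, which encodes serum response factor (1.59), and *Elk4* (0.75). ERK activity was not measured, and whether ERK or another route changed these transcripts was not tested. *Egr1* (6.74), *Fos* (5.14) and *Fosl1* led the rises, and the cyclin gene *Ccnd1* fell by 0.96. *Fos* was at 2.24 and 1.86 FPKM in control livers, 58.71 and 73.83 with APAP alone, and 0.47 in both COS+APAP libraries. In COS+APAP against APAP 0 rose, 8 fell and 4 did not pass (median -2.35), led by *Fos* (-7.10), *Egr1* (-6.20) and *Ier3* (-4.46). Against control 3 rose, 2 fell and 7 did not pass (median 0.10, of either sign under other scalings), but 1 rose with library totals and 0 with limma, while 2 fell in each. The falls were *Fos* (-1.96 ± 0.17, adjusted p = 0.00365) and *Phlda1*, at 54.36 and 54.80 FPKM in control and 11.66 and 16.32 in COS+APAP (-1.81 ± 0.37, adjusted p = 0.0259). These were, with *Dusp6* and *Spry4*, the called genes below control among the members and the ERK output list.

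**Figure D5:**
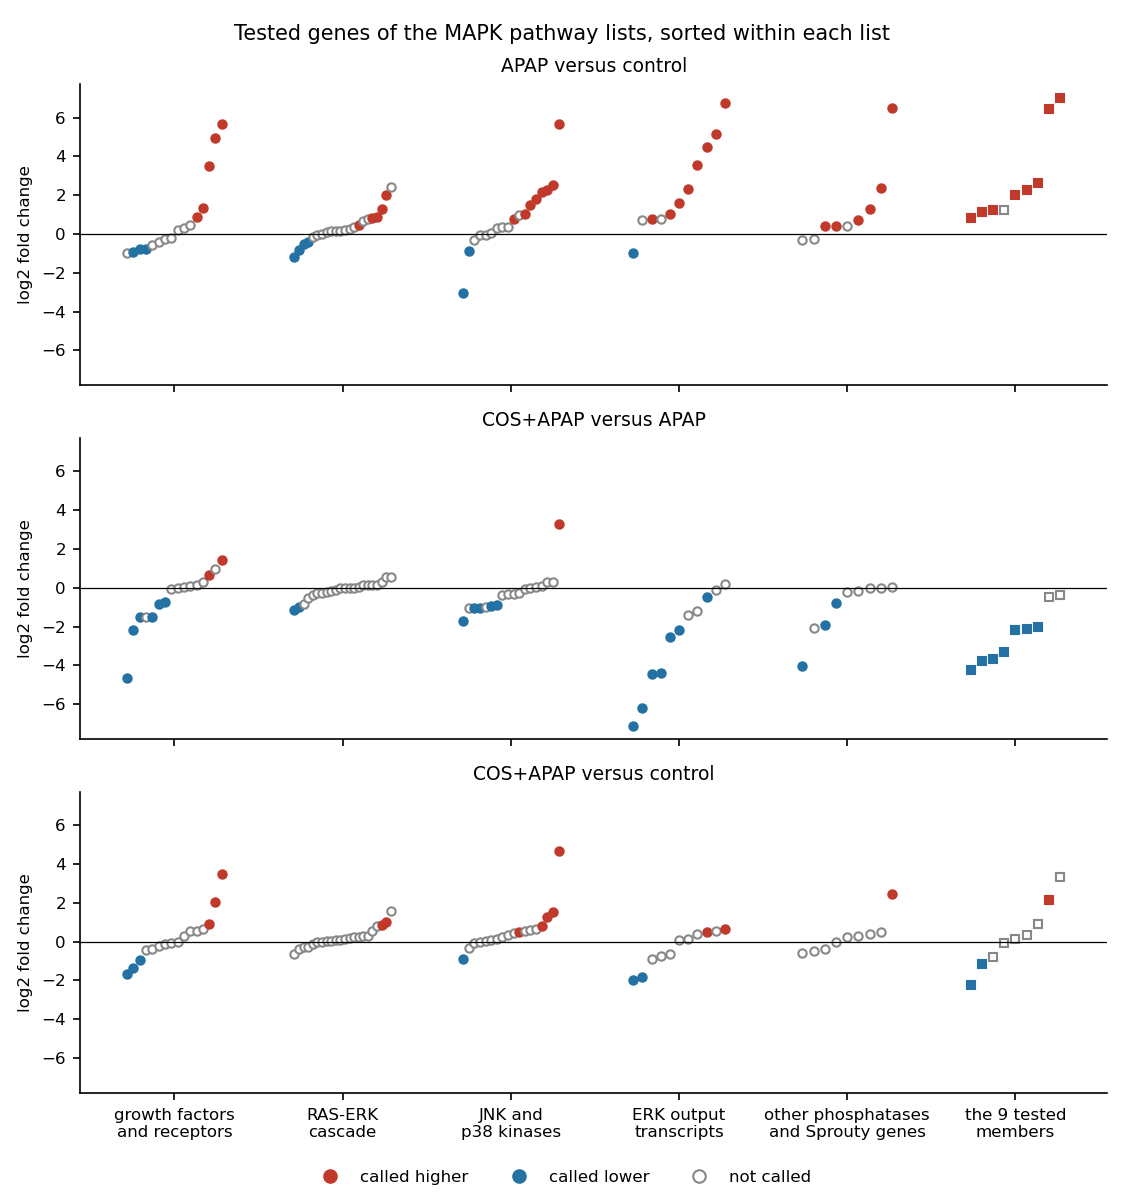
Log2 fold changes of the tested genes of 5 pathway lists and of the 9 tested members (squares), sorted within each list, red or blue where called and open grey where not; *Fosl1* is left out because it is listed at 0 in control. With APAP the called genes of the RAS-ERK cascade lie between -1.19 and 1.99, while *Egr1* reaches 6.74 and *Dusp5* 7.00.

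Markers of other cells moved with the same groups, and their part in the members' changes was not tested. The extraction text speaks of an adipose tissue, whereas the labels say liver, and hepatocyte markers were high in every library. Hepatocyte markers (7 genes) summed to 46980 to 47970 FPKM in control, 54120 to 56350 in APAP and 42350 to 45130 in COS+APAP, most of it *Alb* (26619 to 39526). With APAP 3 of the 7 were called lower, *Glul* (-2.58), *Cyp2e1* (-0.87) and *Ttr* (-0.78), and 2 higher, *Cps1* (1.11) and *Hnf4a* (1.10), and in COS+APAP against APAP *Glul* (2.23) and *Cyp2e1* (1.35) were higher. Erythroid markers (5 genes) summed to 269 to 298 FPKM in control, 1075 to 1492 in APAP and 309 to 316 in COS+APAP, with 4 of 5 called in APAP against control and in COS+APAP against APAP. Neutrophil markers (7 genes) summed to 4.13 to 6.82, 10.7 to 32.1 and 2.52 to 3.95 FPKM in the same order, and *Ly6g*, their defining gene, was listed at 0 in all 6 libraries. Monocyte markers (6 genes) summed to 24.7 to 25.7, 37.9 to 49.2 and 19.5 FPKM, with *Ly6c2* and *Ccr2* at or under 0.2 throughout and *Cd14* at 31.76 and 14.51 in APAP. Sinusoidal endothelial markers (9 genes) summed to 37.3 to 42.9, 45.8 to 46.1 and 25.4 to 29.0 FPKM, and stellate cell markers (9 genes) to 73.4 to 78.8, 81.2 to 83.3 and 31.4 to 53.2. In COS+APAP against control 4 of 9 tested endothelial and 3 of 4 tested stellate markers were lower, and 1 and 0 were higher. By separation of the libraries *Spry4*, *Spry2*, *Spred1*, *Dusp6* and, by a small margin, *Dusp16* lay below control there, as did 42.3% of tested genes. Of these members only *Dusp6* and *Spry4* were called lower. Kupffer cell markers (9 genes) summed to 114 to 134, 132 to 183 and 136 to 140, cholangiocyte markers (5 genes) to 28.5 to 34.4, 35.4 to 51.0 and 20.2 to 21.0, and lymphocyte markers (6 genes) to at most 2.4 FPKM in any library.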

How the data were processed

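Poly(A) RNA of 6 mouse liver libraries (3 groups of 2) was analysed from 1 gene table. Reads were aligned and assembled with HISAT2 2.0 and StringTie 1.3.0, as the submitters' processing notes list them. No source used here names the genome build. All 10 members had the coordinates of GENCODE mouse release M21 (GRCm38), as had 94.2% of the 55141 shared genes. The authors deposited estimated counts per gene, which were whole already, per the file headers. FPKM of the same libraries stood beside them in the deposited table. A further 6 value columns matched no sample and were not used. Counts totalled 71115112 to 76669799 per library. Values of 4 (766 to 990 genes per library) were more frequent than of 3 (290 to 350), so a fragment was taken as about 4 counts, and a count of 3 fragments over a group (12 counts) as the floor against which a gene at 0 was given a bound, covering counting error only. Strand was not stated for the counting. *Dusp5* and *Dusp3* share 547 and 604 exon bases with antisense genes that were at or under 0.39 FPKM, and *Dusp1* shares 11 with *Ergic1*.

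The 10051 genes whose FPKM averaged 1 or more were tested with edgeR 4.0.16 (R 4.3.3) using TMM scaling and the quasi-likelihood F test, 2-sided, in 1 model of 3 groups (3 residual degrees of freedom), with Benjamini-Hochberg adjustment over all tested genes and calls at an adjusted p under 0.05. Standard errors are the log2 fold change over the square root of F. An exact permutation test of 2 against 2 libraries cannot go below p = 0.33, so calls rest on the spread shared between genes and groups. Scripts were tested on simulated data. Members, gene lists, motifs and tests were chosen with earlier results of these data known. Named genes were all members, up to 3 called genes per direction of each list, defining markers near 0, and the 3 tested genes at the smallest Euclidean distance from a member. Some results of this rule are not reported here. For *Fosl1* a bound is printed in place of its fitted value. Alternatives were DESeq2 1.42.0, limma 3.58.1 on log2(FPKM + 1), upper quartile scaling, library totals, no filter, counts divided by 4, the 4 libraries compared, a replicate block, and each library left out, where a lone library is assumed to vary like the other groups.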

Additional observations from a re-analysis of the deposited data

How the results depend on the processing

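Of 318 recomputed values of members under the alternatives, 274 kept their direction and their side of the threshold, 29 lost a call, 8 gained one and 7 turned in sign. All 7 were of differences not called: *Dusp1* between COS+APAP and control (-0.0686 with library totals without TMM, -0.10 with limma, and -0.57 to 0.56 with single libraries left out), *Dusp10* with single libraries left out (-1.51 to 0.27 against APAP and -0.25 to 1.53 against control) and *Dusp16* between COS+APAP and control (-0.23 to 0.061). With single libraries left out, 6 to 7 members were called between APAP and control, 5 to 7 between COS+APAP and APAP and 2 to 4 between COS+APAP and control. DESeq2 called 5 members in the last comparison, where the main count was 3. Calls over all genes with any 1 library left out numbered 3033 to 3577 between APAP and control, 612 to 1297 between COS+APAP and APAP, and 590 to 1211 between COS+APAP and control, beside 4561, 2249 and 2109 with all libraries. Fewer samples enter those fits. DESeq2 called 3552 and 3421 genes in the latter comparisons, and the cause was not tested.

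Upper quartile scaling moved the median of all genes to -0.121 between APAP and control and 0.117 between COS+APAP and APAP, and library totals, added after seeing the data, moved it to -0.155 between APAP and control and -0.157 between COS+APAP and control. The share of calls that were higher was 39.9% with library totals and 40.7% with limma in place of 51.3% between APAP and control, 62.8% with upper quartile scaling in place of 50.2% between COS+APAP and APAP, and 30% with library totals and 29.4% with limma in place of 50.9% between COS+APAP and control. Every called difference of a member kept its direction under each scaling. On log2(FPKM + 1) changes of low genes are smaller by construction, as for *Dusp4* (3.35 with APAP) and *Spry4* (-0.77 between COS+APAP and control).

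Replicate numbers 1 and 3 are shared by control and APAP, but deviations of same-numbered libraries were uncorrelated across genes (r = 0.0027) and the labels do not pair them. With a replicate block 3334 genes and 9 members were called between APAP and control, with *Dusp10* gained (1.22, adjusted p = 0.031) and no member lost. No paired analysis was possible for COS+APAP because it shares fewer than 2 numbers with the other groups. A depth of 27 to 101 estimated counts limits *Dusp4*, *Dusp5* and *Spry2* in control. Depth was also low in COS+APAP for *Spry2*, with 42 estimated counts in each library, and for *Spry4*, with 76 and 81.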
